A study of Mus musculus with 8 samples.

Results

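The matrix metalloproteinases (Mmp), the secreted Adamts proteases and the tissue inhibitors of metalloproteinases (Timp) were examined in cultured mouse primary myoblasts. Members were the genes whose single symbol in the array annotation fits the names Mmp with a number, Adamts with a number, or Timp 1 to 4. They were 44 of the 19938 genes measured: 22 Mmp genes, 18 Adamts genes and 4 Timp genes. A RefSeq gene table (GRCm38.p6) lists 46 genes with such names, of which Adamts2 and Mmp15 were not analysed here.

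Mmp and Adamts proteins are zinc proteases that cut extracellular matrix and cell surface proteins. They are made as inactive precursors and are activated by other proteases such as furin and plasmin. Mmp proteins are blocked by Timp proteins, which bind the active site. In regenerating muscle, gelatinases and collagenases open the basement membrane around satellite cells and fibres, and Adamts proteases remove versican and other proteoglycans of the provisional matrix. At the cell surface, Mmp14 is the usual activator of the gelatinase Mmp2, and Timp2 carries the Mmp2 precursor to it.

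The 8 Affymetrix MoGene 1.0 ST arrays were labelled WT (4) or Runx1f/f (4), each numbered 1 to 4 as biological replicates. Satellite cells of the gastrocnemius muscle came from C57bl/6 WT or Runx1f/f mice aged 2 to 3 weeks and were grown on Matrigel in proliferation medium. The labels also call the Runx1f/f cells knockout, and the series set out to find the transcription program of Runx1 early in regeneration. The sources used here name no Cre driver, no deletion step and no animal behind each culture, so the spread between arrays may be technical. Matrigel, the growth surface of every culture, is a basement membrane extract. Values are log2 intensities after RMA, so a difference of 1 is 2-fold, and brightness is not compared between probe sets of different genes.

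The columns as deposited cannot show an effect of the labelled genotype. The 3 sets of columns, the 4 labelled WT, the pair Runx1f/f 1 and 2, and the pair Runx1f/f 3 and 4, had means that matched to within 7.5e-05 in each of the 35399 rows. Runx1f/f 1 and 2 are therefore mirror images around that mean in every gene, as are 3 and 4. The 8 arrays held 5 components with variance. The leading one took 49.0% of the variance over all rows, with numbers 2 and 3 of both labels on one side and numbers 1 and 4 of both labels on the other. The labels give each sample a source number: 139, 142, 160 and 189 for WT 1 to 4, and 140, 141, 161 and 181 for Runx1f/f 1 to 4. In rising order these numbers form a run from 139 to 142, then 160 and 161, then 181 and 189, which are not consecutive. The equal-mean sets in column order hold 4, 2 and 2 columns. Whether each column carries its own label was not tested, and "labelled" is used throughout in that sense.

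Markers fitted the myoblast label of the cultures. Of 8 measured myoblast markers, which include the myogenic factors Myod1, Myf5 and Myog, all 8 reached 5 or more on some array, and single values ran from 6.83 to 11.94. All 9 macrophage markers, 8 neutrophil markers and 8 endothelial markers stayed under 5 on every array, with highest values of 4.78, 3.90 and 3.76. Among 9 fibroblast markers, 7 stayed under 5, including Pdgfra, Dcn and Col1a1, while the collagen genes Col1a2 and Col3a1 did not. Among 6 osteoblast and chondrocyte markers, 4 stayed under 5 and 2, the transcription factors Sp7 and Sox9, did not. Neutrophils and macrophages are common sources of Mmp8, Mmp9 and Mmp12.

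Between the labelled genotypes, 0 of the 44 members differed (limma, adjusted p under 0.05), against 0% of all 19938 genes, and 0 members had an unadjusted p under 0.05. The smallest unadjusted p among members was 0.9999 and the largest difference was 1.5e-05. The equal means fix these values, so they do not measure an effect of Runx1 loss on the proteases.

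The members were therefore described along the replicate numbers, as arrays numbered 2 and 3 of both labels against arrays numbered 1 and 4 of both labels. That division was taken up because it is the leading component of these same values, so it is a description and carries no p-value. A member was said to separate when the 4 arrays on one side did not overlap the 4 on the other and the means differed by at least 1.5-fold, which is 0.58 on the log2 scale. Each mirror-image Runx1f/f pair has 1 array on each side, and its value fixes the other around the shared mean. An n of 4 beside an SD therefore counts arrays and not 4 separate measurements. By this measure 3 members were higher in numbers 2 and 3 (Adamts5, Adamts20 and Adamts7), or 6.82% of members against 2.16% of all genes. A single member, Mmp23, was lower, or 2.27% against 0.727%. With same-numbered arrays averaged as a replicate block, Mmp14 also separated, which made 4 higher and 1 lower, against 2.32% and 0.828% of all genes. The median difference over the 44 members was 0.02, and over all genes it was -0.01. Counts this small do not set the members apart from other genes.

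Promoter sequences are shown because the series title names Runx1, MyoD and c-Jun. They cover members on which these results turn and, from the Mmp gene cluster, Mmp3, Mmp10 and Mmp13 alone. Of the 44 members, 30 had a promoter entry in RefSeq (GRCm38.p6), with 33 start sites in all. Adamts4, Adamts5, Adamts7 and Mmp2 were among those with none. Each sequence below is the 250 bases before the annotated start, written 5′ to 3′ on the gene's strand, and the capitals mark matches on either strand to TGANTCA (bound by AP-1, the Jun and Fos family), TGTGGT (the Runx core) or CAGCTG (an E-box bound by MyoD).
Mmp13 (GRCm38.p6 chr9:7272264-7272513, plus strand): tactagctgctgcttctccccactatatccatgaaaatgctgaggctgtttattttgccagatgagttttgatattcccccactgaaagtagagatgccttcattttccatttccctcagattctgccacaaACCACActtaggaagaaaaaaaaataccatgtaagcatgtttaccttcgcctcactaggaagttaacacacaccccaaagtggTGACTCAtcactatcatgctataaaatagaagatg
Mmp3 (GRCm38.p6 chr9:7445572-7445821, plus strand): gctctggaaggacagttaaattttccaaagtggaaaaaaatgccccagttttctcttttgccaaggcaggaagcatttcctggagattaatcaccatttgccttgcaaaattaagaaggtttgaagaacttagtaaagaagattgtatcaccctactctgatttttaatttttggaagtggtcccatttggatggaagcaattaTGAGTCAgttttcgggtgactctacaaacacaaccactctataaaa
Mmp10 (GRCm38.p6 chr9:7502092-7502341, plus strand): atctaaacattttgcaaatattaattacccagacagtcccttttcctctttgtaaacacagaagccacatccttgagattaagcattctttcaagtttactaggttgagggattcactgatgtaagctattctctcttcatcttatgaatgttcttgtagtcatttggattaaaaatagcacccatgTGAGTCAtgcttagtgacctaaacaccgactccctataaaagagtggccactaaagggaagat
Mmp14 (GRCm38.p6 chr14:54431348-54431597, plus strand): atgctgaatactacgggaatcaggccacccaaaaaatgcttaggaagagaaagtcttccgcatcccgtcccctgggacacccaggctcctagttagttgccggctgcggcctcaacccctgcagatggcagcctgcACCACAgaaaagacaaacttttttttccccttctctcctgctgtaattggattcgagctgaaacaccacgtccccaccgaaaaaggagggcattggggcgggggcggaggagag
Adamts20 (GRCm38.p6 chr15:94404351-94404600, minus strand): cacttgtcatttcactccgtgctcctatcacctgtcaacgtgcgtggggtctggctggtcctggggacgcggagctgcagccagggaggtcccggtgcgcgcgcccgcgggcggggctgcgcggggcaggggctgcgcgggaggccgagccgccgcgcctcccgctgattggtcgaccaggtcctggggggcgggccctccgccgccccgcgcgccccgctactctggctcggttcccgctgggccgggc
Mmp23 (GRCm38.p6 chr4:155653385-155653634, minus strand): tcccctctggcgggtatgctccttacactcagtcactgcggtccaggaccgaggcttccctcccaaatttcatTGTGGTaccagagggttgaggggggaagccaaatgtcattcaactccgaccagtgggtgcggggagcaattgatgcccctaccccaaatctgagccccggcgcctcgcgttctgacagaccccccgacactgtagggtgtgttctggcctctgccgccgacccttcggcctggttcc
The Mmp13 sequence held 1 AP-1 and 1 Runx match, the Mmp3 and Mmp10 sequences 1 AP-1 match each, and the Mmp14 sequence and the Mmp23 sequence shown, from the further upstream of its 2 starts, 1 Runx match each. The window at the other Mmp23 start held none of the 3 motifs. The Adamts20 sequence held none of the 3 motifs. None of these matches overlapped another.

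Over all 32851 promoter windows of this length, 6.75% held TGANTCA, 14.0% held TGTGGT and 13.0% held CAGCTG. Among the 33 member windows, 8 held TGANTCA, 6 held TGTGGT and 6 held CAGCTG. The 8 with TGANTCA belonged to Mmp1a, Mmp1b, Mmp3, Mmp7, Mmp10, Mmp12, Mmp13 and Mmp20. In the order of RefSeq protein-coding genes these 8, with Mmp8 and Mmp27, form a single unbroken run of 10 neighbours. The windows with TGTGGT belonged to Mmp1b, Mmp7, Mmp13, Mmp14, Mmp23 and Mmp27. The windows with CAGCTG belonged to Adamts9, Adamts12, Adamts17, Mmp25, Timp2 and Timp4. A match describes letters in a window and does not show binding.

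Among the inhibitors, Timp1 and Timp2 were lower in WT 2 and 3 than in WT 1 and 4, and no Timp gene separated over all 8 arrays. Timp1, a secreted inhibitor induced by growth factors and cytokines (probe set 10598976), read 10.28, 8.93, 8.99 and 9.75 on arrays WT 1 to 4, and 9.82, 9.15, 9.71 and 9.26 on Runx1f/f 1 to 4. WT 1 and 4 lay above WT 2 and 3, and among Runx1f/f arrays 1 and 3 lay above 2 and 4, so the sides overlapped. Numbers 2 and 3 averaged 9.20 ± 0.35 (SD, n = 4), and numbers 1 and 4 9.78 ± 0.41 (SD, n = 4). The difference was -0.58 over all arrays, -1.05 in WT arrays alone, -0.67 for Runx1f/f 2 minus 1 and 0.45 for Runx1f/f 3 minus 4.

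Timp2, which both inhibits Mmp2 and carries its precursor to Mmp14 (probe set 10393559), read 10.67, 9.85, 9.86 and 10.38 on arrays WT 1 to 4, and 10.19, 10.19, 10.03 and 10.35 on Runx1f/f 1 to 4. WT 1 and 4 were again above WT 2 and 3, and the difference was -0.66 in WT arrays and -0.41 over all 8. Runx1f/f 1 and 2 read alike, so the sides overlapped.

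Timp3, the inhibitor that stays bound to matrix and also blocks Adamts4 and Adamts5 (probe set 10365482), read 5.44, 4.31, 4.61 and 4.46 on arrays WT 1 to 4, and 4.40, 5.00, 4.98 and 4.43 on Runx1f/f 1 to 4. It was highest in WT 1, and both Runx1f/f 2 and 3 lay above Runx1f/f 1 and 4. Numbers 2 and 3 minus 1 and 4 gave -0.49 in WT arrays, where the sides overlapped, and 0.58 in Runx1f/f arrays, which left 0.04 over all 8. Timp4, the inhibitor found mainly in heart and brain (probe set 10547022), varied little, with 3.79, 3.90, 3.91 and 3.79 on arrays WT 1 to 4, and 3.90, 3.79, 3.80 and 3.90 on Runx1f/f 1 to 4.

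**Figure D1:**
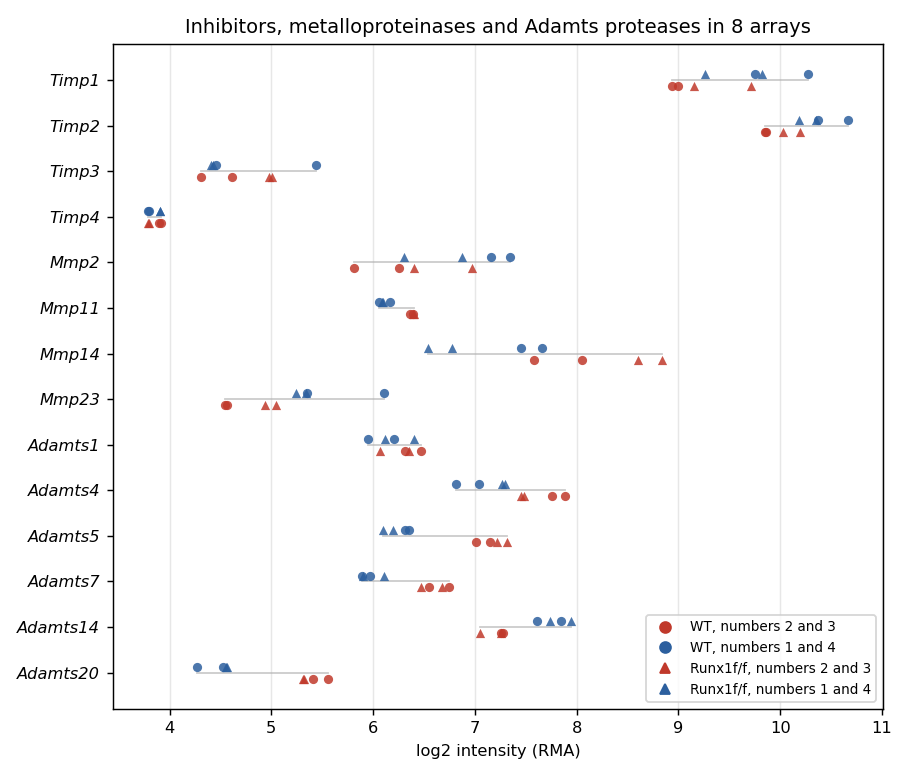
Log2 intensity (x axis) of 14 genes (rows): the 4 inhibitors, and the proteases with a mean of at least 6 or that separate by replicate number. Each point is 1 array, circles for WT and triangles for Runx1f/f, red for numbers 2 and 3 and blue for numbers 1 and 4, with the colours offset vertically and a grey line from the lowest to the highest array. Red and blue do not overlap in Adamts4, Adamts5, Adamts7, Adamts14, Adamts20, Mmp11 and Mmp23, while in Mmp14 the Runx1f/f triangles lie at both ends.

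Of the membrane and secreted Mmp genes, Mmp14 varied most. Mmp14, the membrane-bound collagenase of migrating cells (probe set 10415052), read 7.66, 7.58, 8.05 and 7.46 on arrays WT 1 to 4, and 6.54, 8.84, 8.60 and 6.78 on Runx1f/f 1 to 4. Runx1f/f 2 and 3 were the 2 highest arrays and Runx1f/f 1 and 4 the 2 lowest, with all WT arrays between them. The difference was 2.29 for Runx1f/f 2 minus 1 and 1.82 for 3 minus 4. In WT arrays it was 0.26, where WT 2 lay below WT 1, so the 8 arrays did not separate. They did without WT 1 or without WT 2, and with same-numbered arrays averaged as a replicate block. Over all 8 arrays the means were 8.27 ± 0.56 (SD, n = 4) in numbers 2 and 3 and 7.11 ± 0.53 (SD, n = 4) in numbers 1 and 4, a difference of 1.16. Its range over the 8 arrays, 2.29, was exceeded by 0.431% of all genes.

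Mmp2, gelatinase A, which Mmp14 and Timp2 together activate (probe set 10573924), read 7.15, 5.81, 6.25 and 7.35 on arrays WT 1 to 4, and 6.87, 6.41, 6.97 and 6.30 on Runx1f/f 1 to 4. WT 1 and 4 were above WT 2 and 3, a difference of -1.22. In Runx1f/f arrays, numbers 1 and 3 were higher than 2 and 4, as in Timp1, and the difference of 2 and 3 from 1 and 4 was 0.10. The sides overlapped, and -0.56 over all 8 was close to the SD within a side, 0.48 in numbers 2 and 3 and 0.45 in numbers 1 and 4. Mmp9, gelatinase B of leukocytes, stayed between 3.13 and 3.34.

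Mmp11, stromelysin-3, known from tissue remodelling (probe set 10370037), differed by little but evenly. It read 6.06, 6.37, 6.39 and 6.17 on arrays WT 1 to 4, and 6.10, 6.39, 6.41 and 6.09 on Runx1f/f 1 to 4. The 4 arrays numbered 2 and 3 all lay above the 4 numbered 1 and 4, at 6.39 ± 0.02 (SD, n = 4) against 6.10 ± 0.05 (SD, n = 4). The difference, 0.29, was under the 1.5-fold limit, and it was 0.27, 0.29 and 0.32 in WT arrays, Runx1f/f 2 minus 1 and Runx1f/f 3 minus 4.

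Mmp23, a short membrane-anchored member without a hemopexin domain (probe set 10519140), was the member lower in numbers 2 and 3. It read 6.11, 4.55, 4.56 and 5.35 on arrays WT 1 to 4, and 5.24, 5.04, 4.94 and 5.34 on Runx1f/f 1 to 4. WT 2 and 3 were the lowest arrays, WT 1 the highest, and the Runx1f/f arrays lay between, with 2 and 3 under 1 and 4. The means were 4.77 ± 0.26 (SD, n = 4) and 5.51 ± 0.40 (SD, n = 4), a difference of -0.74. Without WT 1 the difference was -0.54, under the 1.5-fold limit. Within the 4 arrays of source numbers 139 to 142, which hold numbers 1 and 2 of both labels, it was -0.88. The other source numbers hold numbers 3 or numbers 4 alone and give no such value. Arrays 139 to 142 are among those already counted, here and for the members below, so such a value is no separate repeat.

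The remaining 18 of 22 Mmp genes did not reach 5 on any array. These include all 4 collagenases (Mmp1a, Mmp1b, Mmp8 and Mmp13), the stromelysins Mmp3 and Mmp10, matrilysin Mmp7 and macrophage elastase Mmp12. The 10 neighbours of the Mmp cluster named above ran from 3.25 to 3.85 over all arrays, and none of them had a range over 0.26. Mmp13 itself read 3.34, 3.39, 3.31 and 3.30 on arrays WT 1 to 4, and 3.41, 3.26, 3.32 and 3.35 on Runx1f/f 1 to 4. Detection values were not used here, so these levels do not show whether the genes were expressed. Mmp16, membrane-type protease 3, did not overlap between the sides, but its difference was 0.14.

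**Figure D2:**
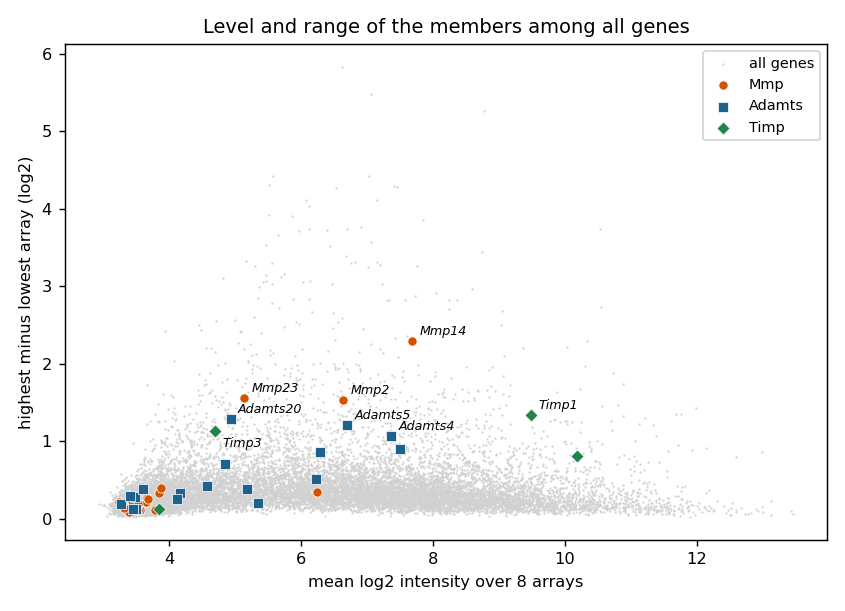
Mean log2 intensity over 8 arrays (x axis) and the highest minus the lowest array (y axis, log2) for each of 19938 genes in grey and the 44 members in colour, by family. Members with a range of at least 1 are named, with Mmp14 highest at 2.29. A dense group of members lies at the lower left, with means below 5 and ranges up to 0.42.

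A range of at least 1 over the 8 arrays was seen in 8 of 44 members, or 18.2%, and in 3.78% of all genes. The 8 were Mmp2, Mmp14, Mmp23, Adamts4, Adamts5, Adamts20, Timp1 and Timp3. The median range was 0.27 in members and 0.25 in all genes. In the 16 members that reached 5 on some array the median range was 0.99, and in the other 28 it was 0.18. The highest array, by which the members were sorted here, is also the upper end of each range. These medians are therefore not independent of the cut, and the same medians are not given for all genes.

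The Adamts proteases that cut proteoglycans held 2 of the 3 members that were higher in numbers 2 and 3. Adamts5, the main aggrecanase of mouse cartilage and a versican-cleaving enzyme in myoblasts (probe set 10440534), read 6.35, 7.01, 7.14 and 6.31 on arrays WT 1 to 4, and 6.10, 7.31, 7.21 and 6.20 on Runx1f/f 1 to 4. The lowest array numbered 2 or 3 was WT 2 and the highest numbered 1 or 4 was WT 1, and they did not overlap. The means were 7.17 ± 0.13 (SD, n = 4) and 6.24 ± 0.11 (SD, n = 4), a difference of 0.93. The lack of overlap over the 8 arrays fixes the sign in each part. The difference was 0.75 in WT arrays, 1.21 for Runx1f/f 2 minus 1 and 1.01 for 3 minus 4. Within source numbers 139 to 142, which reuse arrays of these parts, it was 0.94.

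Adamts20, a versican-cleaving protease best known from pigment cell migration (probe set 10431749), read 4.52, 5.56, 5.41 and 4.27 on arrays WT 1 to 4, and 4.56, 5.32, 5.31 and 4.57 on Runx1f/f 1 to 4. The sides were apart by 0.92, at 5.40 ± 0.11 (SD, n = 4) and 4.48 ± 0.14 (SD, n = 4). The difference was 1.09 in WT arrays, 0.76 and 0.74 in the 2 Runx1f/f pairs and 0.90 within source numbers 139 to 142. In RefSeq the neighbour of Adamts5 is Adamts1, a protease with similar substrates (probe set 10440522). Adamts1 read 5.95, 6.47, 6.31 and 6.21 on arrays WT 1 to 4, and 6.12, 6.35, 6.07 and 6.40 on Runx1f/f 1 to 4, so it overlapped between the sides with a difference of 0.13.

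Adamts4, aggrecanase 1 (probe set 10351551), read 6.81, 7.75, 7.88 and 7.04 on arrays WT 1 to 4, and 7.26, 7.48, 7.45 and 7.30 on Runx1f/f 1 to 4. The sides did not overlap, at 7.64 ± 0.21 (SD, n = 4) and 7.10 ± 0.22 (SD, n = 4), but the difference of 0.54 fell short of 1.5-fold. It was 0.89 in WT arrays and 0.19 in Runx1f/f arrays, and whether the 2 differ was not tested. Leaving out any 1 of the 4 Runx1f/f arrays took it over the 1.5-fold limit, the highest value being 0.60. Adamts8, Adamts9 and Adamts15 did not reach 5 on any array. Adamts15 did not overlap between the sides, with a difference of 0.18.

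Adamts7, which degrades cartilage oligomeric matrix protein in vessels and cartilage (probe set 10587748), read 5.97, 6.55, 6.75 and 5.89 on arrays WT 1 to 4, and 5.90, 6.68, 6.47 and 6.11 on Runx1f/f 1 to 4. Numbers 2 and 3 averaged 6.61 ± 0.12 (SD, n = 4) and numbers 1 and 4 5.97 ± 0.10 (SD, n = 4), and the difference of 0.64 was the one closest above the 1.5-fold limit. It was 0.72 in WT arrays, 0.77 and 0.37 in the Runx1f/f pairs and 0.68 within source numbers 139 to 142. Its close relative Adamts12 stayed under 5, with a difference of 0.18 and no overlap.

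Of the enzymes that trim procollagen, Adamts14 (probe set 10369431) ran the other way. It read 7.61, 7.26, 7.28 and 7.84 on arrays WT 1 to 4, and 7.74, 7.25, 7.05 and 7.95 on Runx1f/f 1 to 4. All arrays numbered 2 and 3 were below all numbered 1 and 4, at 7.21 ± 0.11 (SD, n = 4) and 7.78 ± 0.15 (SD, n = 4). The difference, 1.49-fold, lay just outside the 1.5-fold limit, and on the log2 scale it was -0.46 in WT and -0.69 in Runx1f/f arrays. It passed the limit without WT 1, WT 2, WT 3, Runx1f/f 1 or Runx1f/f 2. Adamts6 also had no overlap without reaching the limit, with a difference of -0.45.

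Among the members, 3 have more than 1 probe set: Adamts3 has 16, Adamts9 has 6 and Adamts17 has 5. None of those rows separated in either direction, and their differences ran from -0.14 to 0.09 in all. No overlap alone, without the 1.5-fold limit, was met by 8 members in the higher direction, or 18.2% against 9.87% of all genes, and by 3 in the lower direction, or 6.82% against 10.5%. Of the 11, 8 were Adamts genes and 3 were Mmp genes, with none of the 4 Timp genes.

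**Figure D3:**
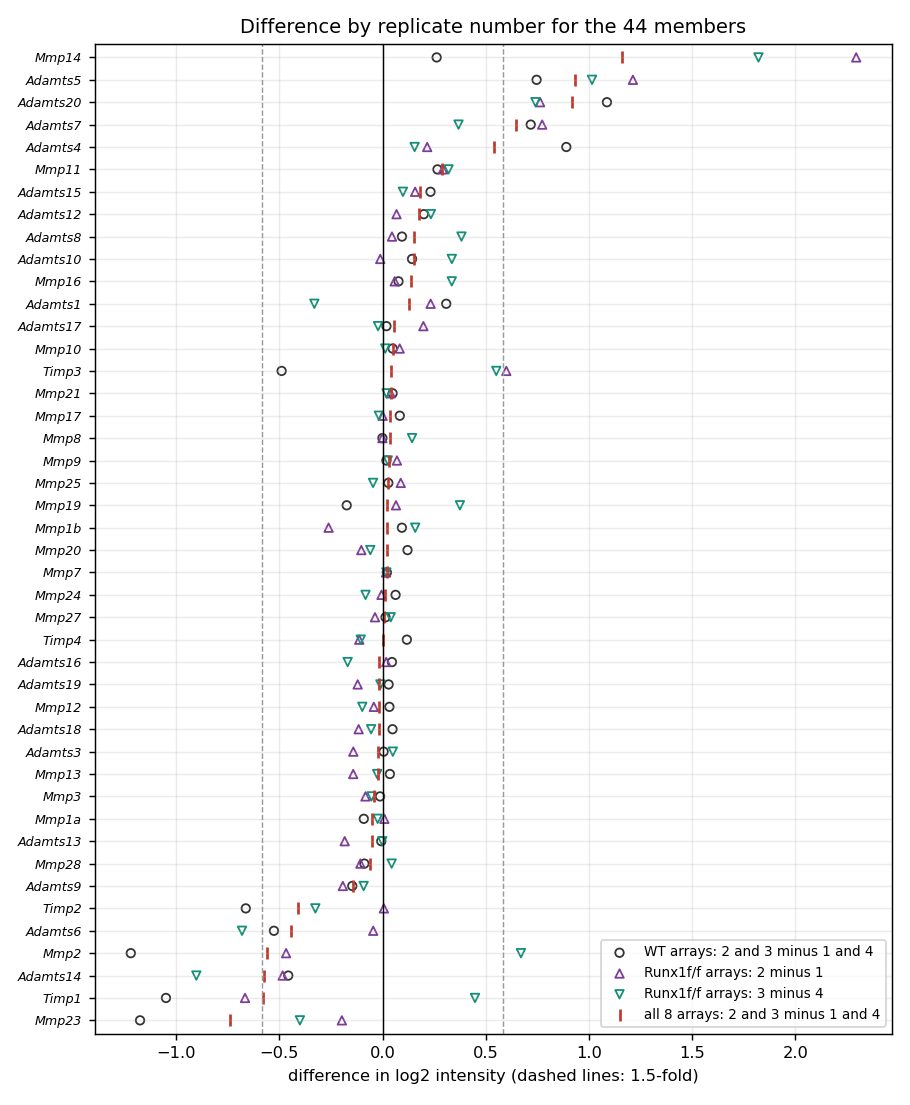
Difference in log2 intensity (x axis) by replicate number for each of the 44 members (rows, sorted): numbers 2 and 3 minus 1 and 4 over all 8 arrays (red bars), the same in WT arrays (circles), Runx1f/f 2 minus 1 (upward triangles) and Runx1f/f 3 minus 4 (downward triangles), with dashed lines at 1.5-fold. All 4 marks lie right of 0 for Adamts5, Adamts20 and Adamts7 and left of it for Mmp23 and Adamts14, whereas Mmp2, Timp1 and Timp3 have marks on both sides. Where the 8 arrays do not overlap between the sides, the side of all 4 marks is fixed in advance.

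The 2 labels gave partly different members. In arrays labelled WT alone, 4 members were higher in numbers 2 and 3 without overlap and by at least 1.5-fold (Adamts4, Adamts5, Adamts7 and Adamts20), against 2.83% of all genes. A further 4 were lower there (Mmp2, Mmp23, Timp1 and Timp2), against 1.89%. In arrays labelled Runx1f/f alone, 3 were higher (Adamts5, Adamts20 and Mmp14), against 2.36%, and Adamts14 was lower, against 0.747%. Adamts5 and Adamts20 stood in both. The mirror-image values of the Runx1f/f pairs mean that 2 differences, not 4 separate arrays, stand behind each Runx1f/f count.

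Other genes of matrix proteolysis were taken from fixed lists. Among 20 activators, inhibitors and receptors, 2 were higher in numbers 2 and 3 and 1 was lower, or 10.0% and 5.0% against 2.16% and 0.727% of all genes. Plat, the tissue plasminogen activator, read 4.12, 4.76, 4.98 and 4.01 on arrays WT 1 to 4, and 4.21, 4.73, 5.07 and 3.87 on Runx1f/f 1 to 4, and the sides differed by 0.83. Spock1, a proteoglycan that inhibits Mmp activation, had a difference of 0.67 that came mostly from Runx1f/f 3 over Runx1f/f 4, at 2.15. Serpinf1, a secreted serpin-family protein, was lower, with a difference of -0.63, at 9.71 ± 0.26 (SD, n = 4) against 10.34 ± 0.28 (SD, n = 4).

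Plau, urokinase, which turns plasminogen into the Mmp-activating protease plasmin, read 10.19, 9.32, 9.14 and 9.94 on arrays WT 1 to 4, and 9.73, 9.57, 9.45 and 9.84 on Runx1f/f 1 to 4. Its sides did not overlap, and the difference of -0.55 was under the limit. Serpinb2, an inhibitor of urokinase, had the widest range of this list, from 4.55 in WT 3 to 8.26 in WT 1. Lrp1, the receptor that clears proteases and Timp complexes, was -1.33 in WT arrays and 0.21 in Runx1f/f arrays for numbers 2 and 3 minus 1 and 4. Reck, a membrane inhibitor of Mmp14, Mmp2 and Mmp9, stayed between 4.57 and 4.89. Plau, Serpinb2, Lrp1 and Reck were chosen after their values were seen.

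Of 13 genes of the ADAM family, 1 was higher and 0 were lower, or 7.69% and 0% against 2.16% and 0.727% of all genes. Adam12, a protease of myoblast fusion and regeneration, read 4.23, 4.79, 5.44 and 4.04 on arrays WT 1 to 4, and 3.80, 5.45, 5.56 and 3.69 on Runx1f/f 1 to 4. Each array numbered 2 and 3 was above each numbered 1 and 4, with means of 5.31 ± 0.35 (SD, n = 4) and 3.94 ± 0.24 (SD, n = 4) and a difference of 1.37. Adam10, Adam17 and Adam19 did not overlap either, with differences of 0.18, 0.12 and 0.39. With Adam12 these are 30.8% of the list, against 9.87% of all genes higher without overlap.

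Of 28 Adamts-like proteins and matrix substrates, 2 were higher and 0 lower, or 7.14% and 0% against 2.16% and 0.727% of all genes. These were the basement membrane collagens Col4a1 and Col4a2, substrates of Mmp2 and Mmp9, with differences of 1.41 and 1.17. Col4a1 read 5.99, 7.26, 7.90 and 6.45 on arrays WT 1 to 4, and 6.16, 7.64, 7.61 and 6.19 on Runx1f/f 1 to 4. Bgn, the small proteoglycan biglycan, was chosen after its values were seen because its arrays are ordered much like those of Mmp14. Runx1f/f 2 and 3 read 9.66 and 9.51 and Runx1f/f 1 and 4 read 6.84 and 6.99, and the WT arrays lay between, from 7.64 to 8.80. Vcan, the versican substrate of Adamts5 and Adamts20, differed by -0.83 in WT and 0.51 in Runx1f/f arrays, with overlap between the sides.

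**Figure D4:**
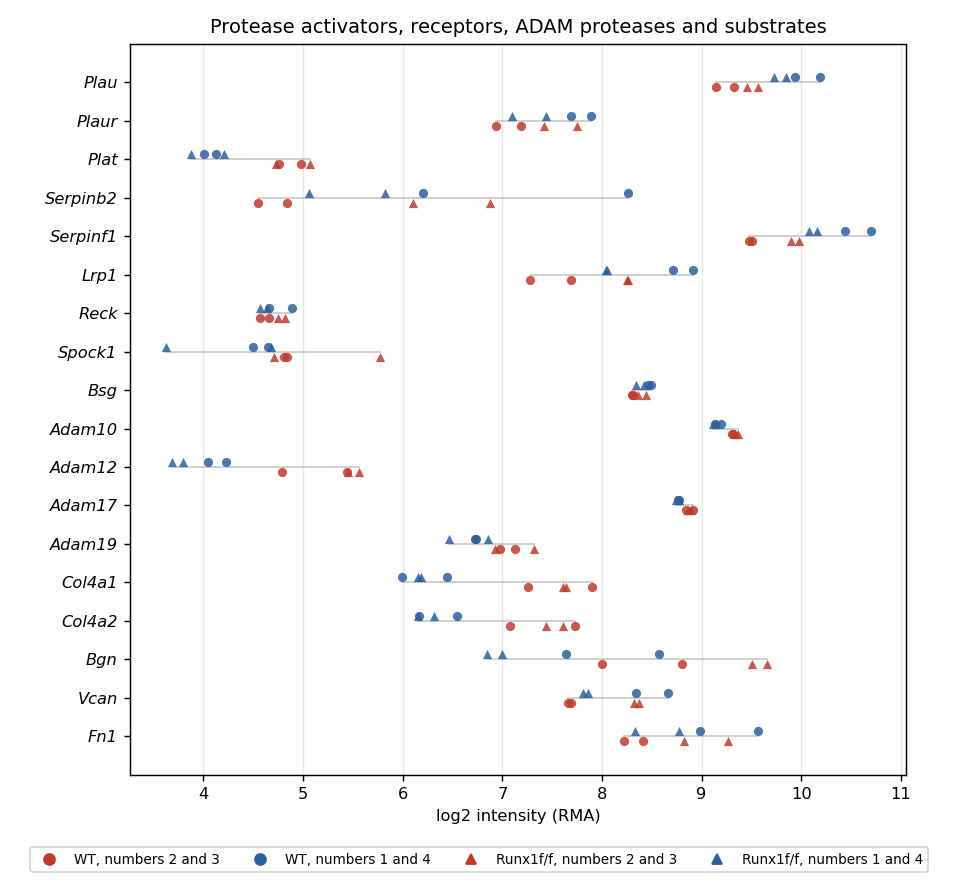
Log2 intensity (x axis) of 18 related genes (rows): plasminogen activators, inhibitors and receptors, ADAM proteases and matrix substrates, chosen after their values were seen. Points are single arrays, circles for WT and triangles for Runx1f/f, red for numbers 2 and 3 and blue for numbers 1 and 4. Adam12, Col4a1 and Col4a2 have all red points to the right of the blue ones, and Bgn has Runx1f/f triangles at both ends.

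Of 12 AP-1 factors, 0 separated by at least 1.5-fold in either direction, against 2.16% and 0.727% of all genes. Jun, which encodes c-Jun, read 9.78, 9.45, 9.42 and 9.79 on arrays WT 1 to 4, and 9.67, 9.55, 9.48 and 9.74 on Runx1f/f 1 to 4, with no overlap and a difference of -0.27. Runx1 itself read 9.15, 9.99, 10.27 and 9.25 on arrays WT 1 to 4, and 9.35, 9.98, 9.89 and 9.44 on Runx1f/f 1 to 4, a difference of 0.74, and its sides did not overlap.

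Of the 8 myoblast markers, 1 was higher and 1 lower along the same division, or 12.5% each, against 2.16% and 0.727% of all genes. The myogenic factor Myog, which drives terminal differentiation, was higher in numbers 2 and 3 by 0.76, and Myf5, of proliferating myoblasts, was lower, at -0.89. By no overlap alone, 3 of the 8 were higher and 3 lower, or 37.5% each, against 9.87% and 10.5% of all genes. Besides Myog and Myf5, these were Cdh15 and Des, higher by 0.25 and 0.18, and Myod1 and Chrna1, at -0.26 and -0.14. Pax7 and Itga7 overlapped between the sides. Of the 6 osteoblast and chondrocyte markers, 0 were higher and 1 was lower, or 0% and 16.7%, against the same shares of all genes, 2.16% and 0.727%. The lower one was the osteoblast factor Sp7, with a difference of -2.61. The cartilage factor Sox9 differed by 0.01, and Ibsp, Alpl, Acan and Col2a1 stayed under 5. None of the fibroblast, macrophage, neutrophil or endothelial markers separated by at least 1.5-fold. Over arrays, the median of the 9 fibroblast markers ran from 3.79 to 3.92 in numbers 2 and 3 and from 3.60 to 3.73 in numbers 1 and 4. On every array this median was the value of 1 gene, Cd34, which stayed under 5. The other 8 fibroblast markers overlapped between the sides, so the median does not show a shift of the list. The median of the 9 macrophage markers ran from 3.50 to 3.60 and from 3.51 to 3.54. The part of these genes or cells in the protease differences was not tested, and in bulk RNA fewer cells of a type and less RNA per cell cannot be told apart.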

How the data were processed

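The deposited table holds log2 intensities, 1 per probe set and array. RMA and Partek are named without versions in the submitters' processing notes, and the sources used here give no genome build or further adjustment. RMA quantile-normalizes arrays together and summarizes probes on the log2 scale. Array medians were 4.39 to 4.41. Precision is limited by how few arrays there are.

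Of 23410 annotated rows, 21789 had 1 gene symbol and 1621 several. Each gene was represented by its row with the highest mean, which left 19938 genes. All 44 members matched a RefSeq identifier (GRCm38.p6), with 0 symbols changed. No dim genes were removed.

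Labelled genotypes were compared with limma 3.58.1 (R 4.3.3, lmFit and eBayes, two-sided, Benjamini-Hochberg over all genes). The fit was tried on simulated independent arrays, which lacked the equal means and mirror-image pairs of the real columns. That trial therefore says nothing about the comparison on these columns. The division by replicate number was described with Python 3.11.15 and not tested. Genes named with every array's value are the Timp genes, members with a mean of at least 6, members that separate, Runx1, Jun and, from each list, up to 3 that separate. Others were chosen after their values were seen. The members, lists and division were chosen with earlier results of these data known.

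The numbers 1 to 4 recur in both labels. Deviations from the label means correlated by 0.24, 0.28, 0.42 and 0.38 for numbers 1 to 4, so pairing was used as an alternative, although the labels give none. Other alternatives were scalings, gene rows, a dim filter, fold limits, each label alone, source numbers 139 to 142 alone (added after seeing the data) and each array left out.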

Additional observations from a re-analysis of the deposited data

Results flagged for a closer look

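In 3 members the arrays numbered 2 and 3 lay on one side of those numbered 1 and 4 in WT arrays and on the other side in Runx1f/f arrays, without overlap in either label. Timp4 differed by 0.12 in WT arrays and by -0.11 in Runx1f/f arrays. Mmp19, a secreted protease of many tissues, differed by -0.17 and 0.22, and Mmp17 by 0.08 and -0.01. The difference between the labels was not tested. These 3 are 6.82% of 44 members, against 8.31% of all genes, and Mmp17, Mmp19 and Timp4 all stayed under 5.

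Dixon's test was applied to the highest and lowest array within each label, in 28 groups of 4 values, and 0 passed its critical value, which chance passes in about 5% of groups. The widest gap, 73.3% of the group's range, was that of Timp3 in WT 1. In the 14 Runx1f/f groups the mirror-image pairs keep such a gap from arising.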

How the results depend on the processing

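Between the labelled genotypes, the count of 0 members held with the replicate block, with arrays centred or quantile-normalized again, with dim genes left out, with all rows and with each array left out, where it ranged from 0 to 0. The paired fit (replicate block) gave 0 members. The equal means fix the counts of the fits that keep all arrays. With 1 array left out, the labelled difference reflects only that array's own distance from the shared mean. None of these counts therefore says anything about robustness. For the division by replicate number, 3 higher and 1 lower became 4 and 1 when same-numbered arrays were averaged as a replicate block, with Mmp14 added, and the block changed no other call. With arrays left out in turn, the count ranged from 3 to 4 higher and from 1 to 2 lower. Mmp23 no longer separated without WT 1. Adamts14 passed without WT 1, WT 2, WT 3, Runx1f/f 1 or Runx1f/f 2, Timp1 without Runx1f/f 3 or 4, Mmp14 without WT 1 or WT 2, and Adamts4 without any 1 of the 4 Runx1f/f arrays. The lower count was 4 in WT arrays alone and 3 within source numbers 139 to 142. A 2-fold limit left 0 higher and 0 lower, and no fold limit gave 8 and 3. With genes that stayed under 5 left out, the members that separated were 18.8% and 6.25% of 16, against 4.36% and 1.49% of all genes. This filter goes by the highest array. Adamts20 passed it only in numbers 2 and 3, the side on which it was counted as higher. These shares are therefore not independent of the division. Detection values were not used, so no filter by signal over background was applied. Whether dim members rose above background was not tested.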
